A study of Mus musculus with 12 samples.

Results

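The skeletal muscle sarcomere genes are 37 genes that code for the contractile filaments of striated muscle, for the Z-discs that anchor those filaments, and for the calcium and energy systems that serve them. They were taken from a list of names and matched to the gene names of the array files, on probes that the scanner software called well above background on at least 2 arrays. All 37 passed, of 24080 genes read in the same way, and the probe used for each of them was well above background on all 12 arrays. By their known use in muscle fibres, 14 were grouped as fast fibre genes, 8 as slow fibre genes and 15 as shared by both fibre types.

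The arrays measured RNA of whole ear skin from C57BL/6J mice. The treated ears had received cream (62.5 mg, 5% imiquimod) and were taken at 4 h. Imiquimod (IMQ) activates the receptor TLR7 and serves to provoke a psoriasis-like inflammation. Each array held 200 ng of RNA pooled from 6 to 8 mice, and the comparison asks how each genotype responded to the cream. The IMQ groups were Tlr7-/- and Tlr9-/- with 1 array each, Tlr7-/-Tlr9-/- and Card14-/- with 2 arrays each, and WT with 1 array. The untreated groups were the same 5 genotypes with 1 array each. TLR7 and TLR9 are endosomal sensors of nucleic acids, and CARD14, an adaptor found in keratinocytes, acts upstream of NF-kB. A group given cream without IMQ was not analysed here, so the drug and the act of applying cream cannot be told apart. The kind of deletion in each line, the age of the mice, and whether repeat arrays shared a pool are not stated in the labels, so the spread between repeat arrays may be technical. Skin was represented on every array: Krt14, Krt10 and Lor, which are keratinocyte genes chosen for this check after the tests had been run, were well above background on all 12 arrays. Krt14 lay between 18.17 and 18.32 on the log2 signal scale, near the top of that scale, where quantile normalization itself brings the arrays together.

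A sarcomere is the contractile unit between a pair of Z-discs. Myosin heavy chains with their light chains form the thick filament, actin with tropomyosin and the troponin complex forms the thin filament, and calcium released through the ryanodine receptor binds troponin C and lets the filaments slide. Fast and slow fibres use different genes for the same part, so that most parts of the machine come as a fast and a slow isoform. The mouse ear carries thin skeletal muscles beneath the skin, which whole-ear RNA includes. In bulk RNA of this kind, fewer muscle fibres in the sample and less RNA per fibre cannot be told apart.

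Isoforms of one protein could share probe signal if their sequences were alike, so 2 probes of the troponin T genes, which anchor troponin to the thin filament, are shown first. Both are 60 bases long, with mm9 positions from the array files. The Tnnt1 probe lies at chr7:4460086-4460145 on the minus strand and the Tnnt3 probe at chr7:149698254-149698479 on the plus strand, an interval longer than the probe itself.
Tnnt1 probe: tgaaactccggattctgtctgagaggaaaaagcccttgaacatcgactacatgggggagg
Tnnt3 probe: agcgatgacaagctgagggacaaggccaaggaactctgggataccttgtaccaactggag
At their best ungapped alignment the 2 sequences share 24 of 60 bases. Among the 14 pairs of isoform probes used below, the most alike shared 22 of 60 bases. These values set probe against probe. No probe was compared with the transcript of the other isoform, so shared signal was not tested.

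Promoter stretches of some of the members whose responses are set side by side below are shown next. Each is 250 bases ending at the start of the gene, from RefSeq on build GRCm38.p6. Capitals mark 3 kinds of motif known from muscle promoters: the E-box (CANNTG), which binds MyoD-type factors, the MEF2 motif and the CArG box of serum response factor. Tnnt1 and Tnnc1 are slow troponins and Tnnc2 is the fast counterpart of Tnnc1. Myh1 and Myh4 are neighbouring fast myosin genes, and Myoz2 is a slow Z-disc gene. The stretches are chr7:4515976-4516225 (minus strand) for Tnnt1, chr14:31208062-31208311 (plus) for Tnnc1, chr2:164779735-164779984 (minus) for Tnnc2, chr11:67199852-67200101 (plus) for Myh1, chr11:67237562-67237811 (plus) for Myh4 and chr3:123034988-123035237 (minus) for Myoz2.
Tnnt1 promoter: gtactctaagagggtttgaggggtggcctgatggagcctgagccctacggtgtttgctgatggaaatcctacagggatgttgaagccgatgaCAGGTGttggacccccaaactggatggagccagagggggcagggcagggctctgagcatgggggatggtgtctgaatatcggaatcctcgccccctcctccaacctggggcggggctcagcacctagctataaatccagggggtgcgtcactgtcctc
Tnnc1 promoter: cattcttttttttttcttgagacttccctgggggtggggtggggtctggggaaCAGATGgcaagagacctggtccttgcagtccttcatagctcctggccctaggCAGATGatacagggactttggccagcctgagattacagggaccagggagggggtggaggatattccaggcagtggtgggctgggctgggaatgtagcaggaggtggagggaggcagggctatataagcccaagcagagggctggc
Tnnc2 promoter: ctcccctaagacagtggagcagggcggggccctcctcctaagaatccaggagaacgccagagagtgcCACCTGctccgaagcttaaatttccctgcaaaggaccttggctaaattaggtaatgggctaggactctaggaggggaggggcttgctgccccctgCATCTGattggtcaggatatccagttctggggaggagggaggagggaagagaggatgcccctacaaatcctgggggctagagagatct
Myh1 promoter: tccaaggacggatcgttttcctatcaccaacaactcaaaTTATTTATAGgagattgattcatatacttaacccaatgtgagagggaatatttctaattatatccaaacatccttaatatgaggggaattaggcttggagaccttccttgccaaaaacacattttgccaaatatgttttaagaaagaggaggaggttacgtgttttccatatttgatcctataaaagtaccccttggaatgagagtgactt
Myh4 promoter: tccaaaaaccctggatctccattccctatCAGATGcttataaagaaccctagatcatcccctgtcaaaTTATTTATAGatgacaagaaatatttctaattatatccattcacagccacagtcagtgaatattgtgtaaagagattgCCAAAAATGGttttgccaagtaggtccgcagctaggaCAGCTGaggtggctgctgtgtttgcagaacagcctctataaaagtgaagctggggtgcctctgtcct
Myoz2 promoter: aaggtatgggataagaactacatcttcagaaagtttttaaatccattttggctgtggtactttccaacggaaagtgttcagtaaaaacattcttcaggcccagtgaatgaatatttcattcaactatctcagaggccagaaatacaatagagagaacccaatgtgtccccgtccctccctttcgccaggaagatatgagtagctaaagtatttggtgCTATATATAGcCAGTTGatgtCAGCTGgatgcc
The Myh1 and Myh4 stretches hold the same MEF2 match, ttatttatag, and Myh4 also holds 2 E-boxes and 1 CArG box. Myoz2 holds another MEF2 match directly before its 2 E-boxes. Promoters were found for 30 of the 37 members, 37 promoters in all.

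Averaged over all 5 genotypes, most slow fibre genes fell after IMQ and most fast fibre genes did not pass the test. The number of slow fibre calls changed with the genotypes included, as did the number of calls over all genes. A response is the log2 signal of the IMQ group minus that of the untreated group of the same genotype, so that -1 is a 2-fold lower signal. On average 5 of the 8 slow fibre genes fell and 0 rose, with a median response of -0.82. Of the 14 fast fibre genes 3 fell and 1 rose, with a median of 0.05. Of the 15 shared genes 4 fell and 0 rose, with a median of -0.30. Over all genes the median was -0.08. The test was limma with genotype as a block, and a call needed an adjusted p under 0.05 (Benjamini-Hochberg, over all 24080 genes). In all, 12 of 37 members fell, or 32.4%, against 15.9% of all genes, and 1 rose, or 2.70%, against 10.4% of all genes. With arrays scaled to their 75th percentile in place of quantile normalization, 10 members fell and 2 rose, and the fast fibre median was 0.35. In that scaling 3157 genes fell and 3241 rose in all, against 3839 and 2512 with quantile normalization. Leaving out 1 genotype at a time left 3 to 10 members lower: 10 without WT, 9 without Card14-/-, 5 without Tlr7-/-, 4 without Tlr7-/-Tlr9-/- and 3 without Tlr9-/-. Of all 24080 genes 1760, 3087, 1442, 1857 and 708 fell in these fits, in the same order, against 3839 with all 5 genotypes. Of the 8 slow fibre genes 1 fell without Tlr7-/- and 1 without Tlr9-/-. The arrays lay on 2 slides, and in the 3 genotypes measured wholly on slide 1 (Tlr7-/-, Tlr9-/- and WT) 1 slow fibre gene fell, and 4 members fell in all, against 13.9% of all genes, while 7 rose, 4 of them fast fibre genes, against 11.1%. With slide as a block over the 12 arrays 12 members fell, against 31.5% of all genes, and 13 rose, against 18.5%. The slow fibre genes had 5 lower and 0 higher, and the fast fibre genes 3 lower and 8 higher. That fit took repeat arrays singly, although they may share a pool. It gave the same estimates as slide 1 alone, so these fits differ in their error and not in the size of the responses. With slide 1 alone and with slide as a block, 10.8% and 32.4% of the members fell, close to the shares of all genes.

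**Figure D1:**
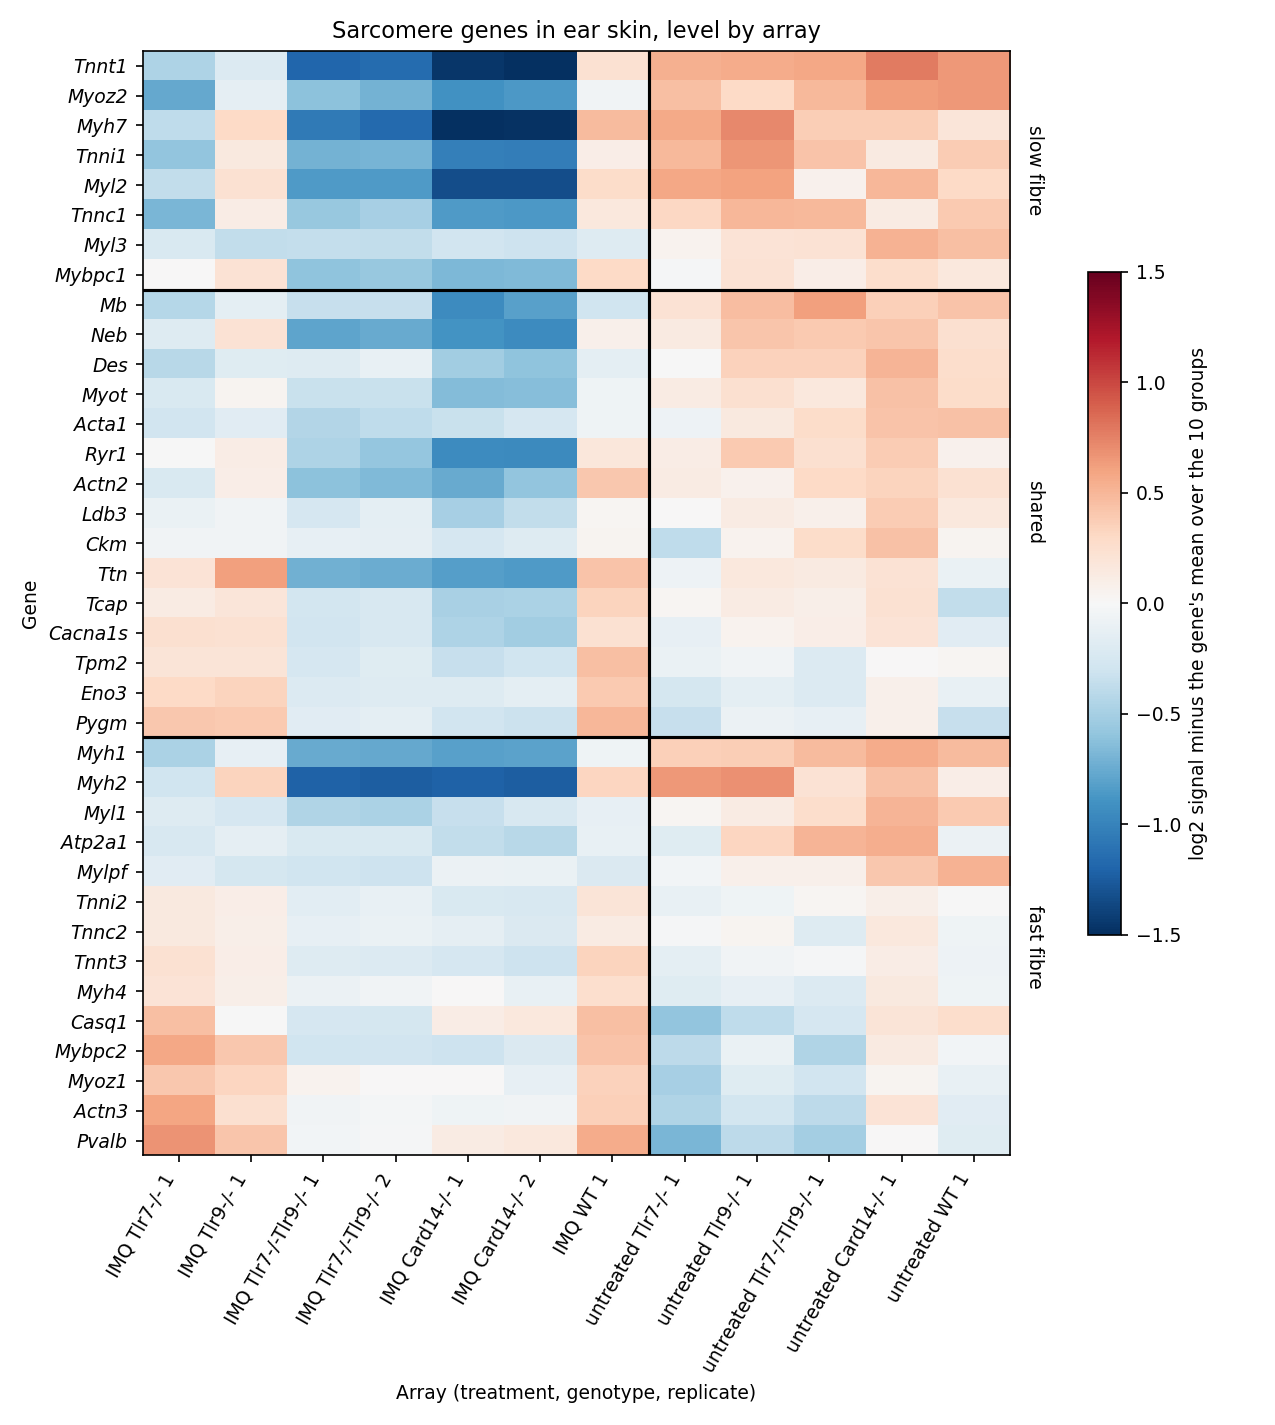
Log2 signal of each sarcomere gene (rows) on each of the 12 arrays (columns), as the difference from the gene's mean over the 10 groups, in colour from blue (lower) to red (higher). Horizontal lines separate slow fibre, shared and fast fibre genes, and the vertical line separates the 7 IMQ arrays on the left from the 5 untreated arrays on the right. The 4 IMQ arrays of Card14-/- and Tlr7-/-Tlr9-/- are blue in most slow fibre rows, and Pvalb, Actn3 and Myoz1 at the bottom are redder on the IMQ arrays of Tlr7-/-, Tlr9-/- and WT.

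Among the slow troponins, Tnnt1, the slow troponin T, gave the lowest average response of the 37 members. Its log2 signal after IMQ was 13.66 in Tlr7-/-, 13.92 in Tlr9-/-, 12.94 and 12.98 in Tlr7-/-Tlr9-/-, 12.67 and 12.63 in Card14-/- and 14.36 in WT. In untreated ears it was 14.66 in Tlr7-/-, 14.68 in Tlr9-/-, 14.71 in Tlr7-/-Tlr9-/-, 14.90 in Card14-/- and 14.77 in WT. All IMQ arrays lay below all untreated arrays, and the untreated values spread far less than the IMQ values. The average response was -1.23 ± 0.28 (SE, n = 5 genotypes, adjusted p = 0.0298), a signal 2.35-fold lower after IMQ. The second Tnnt1 probe, whose sequence is shown above, gave -1.22.

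Tnni1, the slow inhibitory troponin, responded with -0.83 ± 0.16 (SE, n = 5 genotypes, adjusted p = 0.0198), and its second probe with -1.40. Its IMQ arrays had a lowest value of 9.61, a median of 9.95 and a highest value of 10.80, and its untreated arrays were 11.13 in Tlr7-/-, 11.31 in Tlr9-/-, 11.08 in Tlr7-/-Tlr9-/-, 10.78 in Card14-/- and 11.03 in WT. The IMQ Tlr9-/- array reached above the untreated Card14-/- array, so the groups overlapped at that point. Tnnc1, the slow and cardiac troponin C that binds calcium, fell to between 6.52 and 7.54 in IMQ ears, against 7.50 to 7.88 in untreated ears, with a response of -0.72 ± 0.15 (SE, n = 5 genotypes, adjusted p = 0.0235). It was lower in 5 of 5 genotypes.

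The fast troponins did not pass the test, and their values depended on the scaling. Tnnt3, the fast troponin T, had a log2 signal of 16.77 in Tlr7-/-, 16.65 in Tlr9-/-, 16.35 and 16.33 in Tlr7-/-Tlr9-/-, 16.29 and 16.24 in Card14-/- and 16.88 in WT after IMQ. Its untreated values were 16.39 in Tlr7-/-, 16.49 in Tlr9-/-, 16.52 in Tlr7-/-Tlr9-/-, 16.65 in Card14-/- and 16.47 in WT. The IMQ values lay on both sides of the untreated ones, and the average response was 0.07 ± 0.14 (SE, n = 5 genotypes). Its 2 other probes gave -0.02 and 0.10, the first of them being the probe shown above. Tnni2 and Tnnc2, the fast inhibitory and calcium-binding troponins, had 0.03 ± 0.11 and 0.03 ± 0.10 (SE, n = 5 genotypes each). All 3 lie near the bright end of the signal scale, where quantile normalization brings arrays together. With the 75th percentile scaling Tnnt3 had 0.40, Tnni2 0.45 and Tnnc2 0.42, with adjusted p of 0.092, 0.057 and 0.0618, and with slide as a block Tnnt3 and Tnni2 were called higher with 0.31 and 0.21.

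Set against each other within each genotype, the slow troponin responded below the fast one in 5 of 5 genotypes for all 3 troponin subunits. The response of Tnnt1 minus that of Tnnt3 averaged -1.31 ± 0.44 (SD, n = 5 genotypes) and ranged from -1.87 to -0.82. For Tnni1 minus Tnni2 it averaged -0.86 ± 0.33 and for Tnnc1 minus Tnnc2 -0.75 ± 0.35 (SD, n = 5 genotypes each). These differences are descriptions without a test, since the members were grouped with earlier results of these data known.

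**Figure D2:**
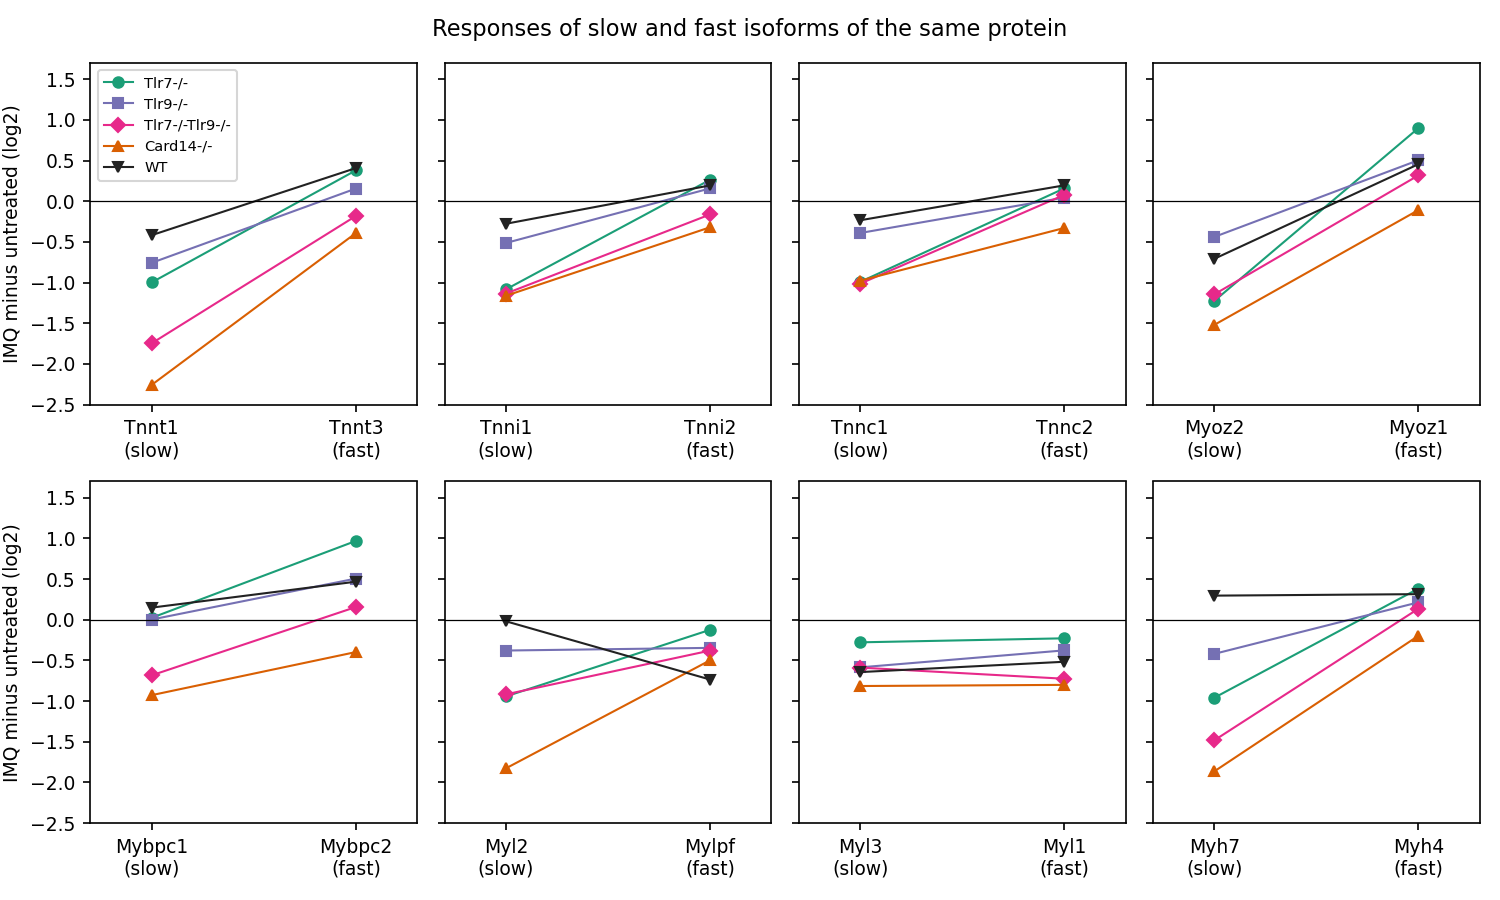
IMQ response (IMQ minus untreated, log2) of the slow isoform, left, and the fast isoform, right, of 8 muscle proteins, with a line for each of the 5 genotypes. The lines climb from left to right in all 5 genotypes for the 3 troponin pairs, Myoz2 and Myoz1, Mybpc1 and Mybpc2, and Myh7 and Myh4, and run nearly flat for Myl3 and Myl1.

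The myosin heavy chains, which are the motor proteins of the thick filament, did not move as one. Myh4, the heavy chain of the fastest (type 2B) fibres, had IMQ values of 16.80 in Tlr7-/-, 16.69 in Tlr9-/-, 16.51 and 16.54 in Tlr7-/-Tlr9-/-, 16.60 and 16.49 in Card14-/- and 16.85 in WT. Its untreated values were 16.42 in Tlr7-/-, 16.48 in Tlr9-/-, 16.39 in Tlr7-/-Tlr9-/-, 16.74 in Card14-/- and 16.54 in WT. The groups overlapped and the average response was 0.17 ± 0.10 (SE, n = 5 genotypes, adjusted p = 0.248). With the 75th percentile scaling it was 0.48 and called higher.

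Myh1, the heavy chain of type 2X fibres, fell on average and was lower after IMQ in every genotype. It read 14.88 in Tlr7-/-, 15.23 in Tlr9-/-, 14.60 and 14.58 in Tlr7-/-Tlr9-/-, 14.54 and 14.55 in Card14-/- and 15.29 in WT after IMQ. The untreated arrays read 15.71 in Tlr7-/-, 15.73 in Tlr9-/-, 15.83 in Tlr7-/-Tlr9-/-, 15.91 in Card14-/- and 15.83 in WT, all above every IMQ array. The average response was -0.89 ± 0.16 (SE, n = 5 genotypes, adjusted p = 0.016), a signal 1.86-fold lower.

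Myh2 of type 2A fibres and Myh7 of slow (type 1) fibres had averages of similar size, -0.84 ± 0.30 and -0.88 ± 0.32 (SE, n = 5 genotypes each), that missed the threshold with adjusted p of 0.0849 and 0.0926. Myh7 read 12.19 in Tlr7-/-, 12.87 in Tlr9-/-, 11.51 and 11.41 in Tlr7-/-Tlr9-/-, 11.07 and 11.09 in Card14-/- and 13.05 in WT after IMQ. Untreated ears read 13.15 in Tlr7-/-, 13.29 in Tlr9-/-, 12.95 in Tlr7-/-Tlr9-/-, 12.94 in Card14-/- and 12.76 in WT. WT was the only genotype of the 5 in which Myh7 was higher after IMQ, by 0.30, and the same held for Myh2, by 0.22. For Myh2, a second probe near the other end of the transcript gave 0.17 in place of -0.84, so its value is that of 1 probe.

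Myh2, Myh1 and Myh4 lie side by side on chromosome 11, between Myh3, the embryonic heavy chain, and Myh8, the perinatal one. The response of Myh1 minus that of Myh4 was -1.07 ± 0.27 (SD, n = 5 genotypes), negative in 5 of 5 genotypes, and the printed stretches of both hold the same MEF2 match. Myh3, which is not among the 37, had the lowest response of all genes in the muscle lists used here, -2.63 ± 0.26 (SE, n = 5 genotypes, adjusted p = 0.00683). Myh8 had -0.13 ± 0.12 (SE, n = 5 genotypes). Genes of this cluster gave responses from -2.63 to 0.17.

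**Figure D3:**
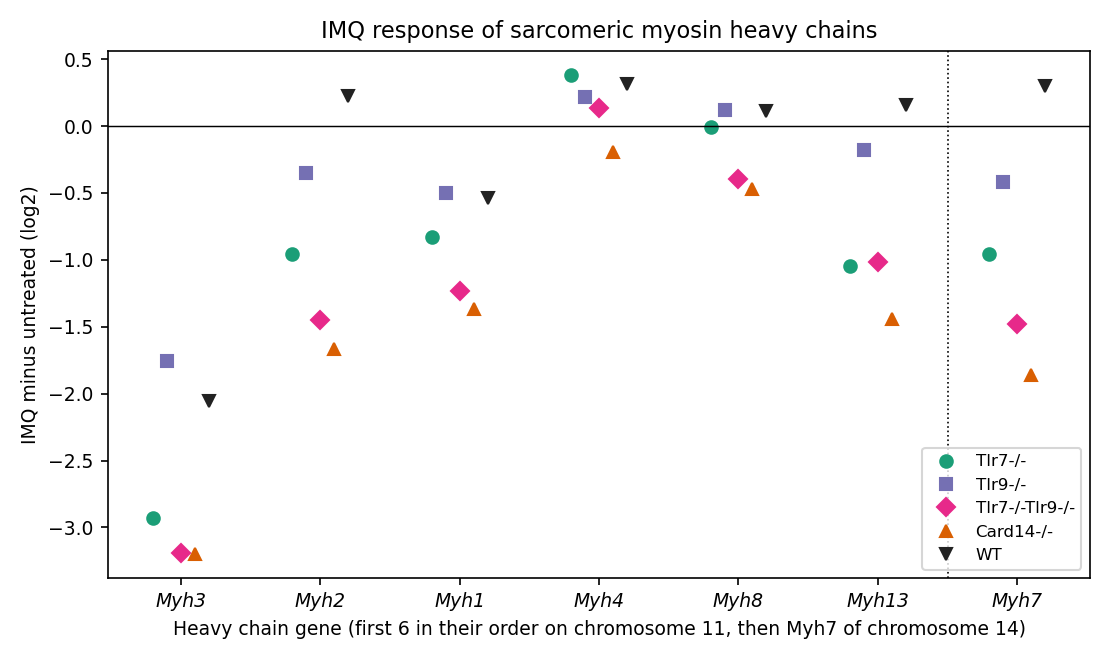
IMQ response (IMQ minus untreated, log2) of the sarcomeric myosin heavy chain genes, with 1 point for each of the 5 genotypes. Myh3 lies lowest in every genotype, Myh1 is below 0 in all 5, Myh4 lies near 0, and Myh2 and Myh7 spread from above 0 in WT to below -1.5 in Card14-/-.

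The myosin light chains, which stabilise the lever arm of the heavy chain, included called genes of both fibre types. Myl3, the slow essential light chain, responded with -0.58 ± 0.09 (SE, n = 5 genotypes, adjusted p = 0.0132), and Myl1, the fast one, with -0.53 ± 0.11 (SE, n = 5 genotypes, adjusted p = 0.021). The 3 other Myl1 probes gave -0.55, -0.52 and -0.37. The difference between Myl3 and Myl1 was -0.05 ± 0.13 (SD, n = 5 genotypes), smaller than its own spread with quantile normalization. With the 75th percentile scaling Myl3 had -0.55 (adjusted p = 0.0141) and Myl1 -0.28 (adjusted p = 0.0758), so that the Myl1 call was lost. Mylpf, the fast regulatory light chain, fell by 0.42 ± 0.10 on the log2 scale (SE, n = 5 genotypes, adjusted p = 0.0342), and with the 75th percentile scaling had -0.30 (adjusted p = 0.0929). Myl2, the slow regulatory light chain, had -0.82 ± 0.26 (SE, n = 5 genotypes, adjusted p = 0.0667) and ranged from -1.83 in Card14-/- to -0.02 in WT.

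Of the myosin-binding proteins C, which brace the thick filament, neither passed the test. Slow Mybpc1 had -0.29 ± 0.19 and fast Mybpc2 0.34 ± 0.20 (SE, n = 5 genotypes each), and Mybpc1 was the lower of the pair in 5 of 5 genotypes. The other Mybpc1 probes gave -0.65, -0.63 and 0.03. Mybpc1 had the smallest average response of the 8 slow fibre genes: it had 0.00 in Tlr9-/-, 0.02 in Tlr7-/- and 0.15 in WT, and was below 0 in Tlr7-/-Tlr9-/- and Card14-/- with -0.68 and -0.93.

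At the Z-disc the calsarcins, which tie calcineurin to alpha-actinin, gave the largest isoform difference among the pairs. Myoz2, the slow fibre calsarcin, read 9.31 in Tlr7-/-, 9.95 in Tlr9-/-, 9.47 and 9.37 in Tlr7-/-Tlr9-/-, 9.17 and 9.22 in Card14-/- and 10.03 in WT after IMQ. Its untreated arrays read 10.54 in Tlr7-/-, 10.38 in Tlr9-/-, 10.57 in Tlr7-/-Tlr9-/-, 10.71 in Card14-/- and 10.74 in WT, with no overlap. The response was -1.01 ± 0.17 (SE, n = 5 genotypes, adjusted p = 0.0146), and -1.15 on the second probe above background. Myoz1, the fast fibre calsarcin, had 0.42 ± 0.15 (SE, n = 5 genotypes, adjusted p = 0.0861), so that Myoz2 minus Myoz1 averaged -1.42 ± 0.45 (SD, n = 5 genotypes).

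The alpha-actinins cross-link actin at the Z-disc. Actn3, present in fast fibres alone, had 0.44 ± 0.18 and Actn2, present in all fibres, -0.41 ± 0.21 (SE, n = 5 genotypes each), and neither passed. Des, the intermediate filament desmin that links neighbouring Z-discs, fell by 0.58 ± 0.12 on the log2 scale (SE, n = 5 genotypes, adjusted p = 0.0215). Myot, the Z-disc protein myotilin, fell by 0.49 ± 0.14 (SE, n = 5 genotypes, adjusted p = 0.0499), just inside the threshold, and its call was lost in 8 of 13 alternative settings. With the mean over its probes Des had -0.17 (adjusted p = 0.385) and was not called. That mean takes in a probe well above background on 2 arrays only, with a mean level of 3.75 against 10.74 for the probe used. For both, on the probe used, all IMQ arrays lay below all untreated arrays. Ldb3, a PDZ protein of the Z-disc, had -0.30 ± 0.12, and Tcap, which caps titin there, had -0.04 ± 0.20 (SE, n = 5 genotypes each).

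Of the remaining filament genes, Acta1, the skeletal alpha-actin, fell by 0.49 ± 0.10 on the log2 scale (SE, n = 5 genotypes, adjusted p = 0.0232). Tpm2, a tropomyosin of the thin filament, had 0.13 ± 0.13 and its other probe -0.27. Neb, the giant ruler protein of the thin filament, had -0.64 ± 0.22 (SE, n = 5 genotypes, adjusted p = 0.0776), and its other probes above background on all 12 arrays gave -0.75 and 0.34. Ttn, the spring that joins Z-disc and M-band, had -0.13 ± 0.29 (SE, n = 5 genotypes), and its 5 other probes ranged from -0.24 to 0.73. Over all members, 27 further probes were above background on all 12 arrays, and 17 of them had the sign of the probe used.

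Myoglobin (Mb), the oxygen store of oxidative fibres, had the lowest adjusted p of the members. It read 13.84 in Tlr7-/-, 14.12 in Tlr9-/-, 13.91 and 13.92 in Tlr7-/-Tlr9-/-, 13.32 and 13.45 in Card14-/- and 13.97 in WT after IMQ. Untreated ears read 14.48 in Tlr7-/-, 14.73 in Tlr9-/-, 14.88 in Tlr7-/-Tlr9-/-, 14.62 in Card14-/- and 14.69 in WT. Every IMQ value was below every untreated one, and the response was -0.83 ± 0.11 (SE, n = 5 genotypes, adjusted p = 0.0101). It was called lower under all 13 alternative settings tried, the only one of the 13 called members for which this held. The others kept their call in 5 (Myot) to 12 (Myh1) of the 13 settings, and Tnnt1 in 9.

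Glycolytic and phosphagen enzymes did not pass the test. Pygm, the glycogen phosphorylase of muscle, had 0.33 ± 0.20, Eno3, the muscle enolase, had 0.26 ± 0.15, and Ckm, the muscle creatine kinase, had -0.17 ± 0.15 (SE, n = 5 genotypes each). The other Pygm probe gave -0.13.

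Pvalb, parvalbumin, a calcium buffer of fast fibres, was the only member of the 37 that rose. It read 16.06 in Tlr7-/-, 15.79 in Tlr9-/-, 15.33 and 15.36 in Tlr7-/-Tlr9-/-, 15.50 and 15.54 in Card14-/- and 15.94 in WT after IMQ. Untreated ears read 14.69 in Tlr7-/-, 14.98 in Tlr9-/-, 14.87 in Tlr7-/-Tlr9-/-, 15.39 in Card14-/- and 15.19 in WT. It was higher in 5 of 5 genotypes, but the untreated Card14-/- array lay above the IMQ Tlr7-/-Tlr9-/- arrays. The response was 0.71 ± 0.18 (SE, n = 5 genotypes, adjusted p = 0.0373), and leaving out any genotype other than Card14-/- ended the call, with adjusted p of 0.0698 to 0.117.

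The other calcium-handling genes did not pass. Ryr1, the calcium release channel, had -0.48 ± 0.22, Atp2a1, the fast calcium pump, -0.45 ± 0.16, Casq1, the calcium store protein of fast fibres, 0.31 ± 0.18, and Cacna1s, the voltage sensor of the transverse tubule, -0.03 ± 0.19 (SE, n = 5 genotypes each). In all, 9 of 37 members, or 24.3%, had every IMQ group below every untreated group, against 15.3% of all genes. They were Myh1, Mylpf and Myl1 of the fast fibre genes, Tnnt1, Myl3 and Myoz2 of the slow ones and Mb, Myot and Des of the shared ones. The opposite, every IMQ group above every untreated one, held for 0 members and for 9.64% of all genes.

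**Figure D4:**
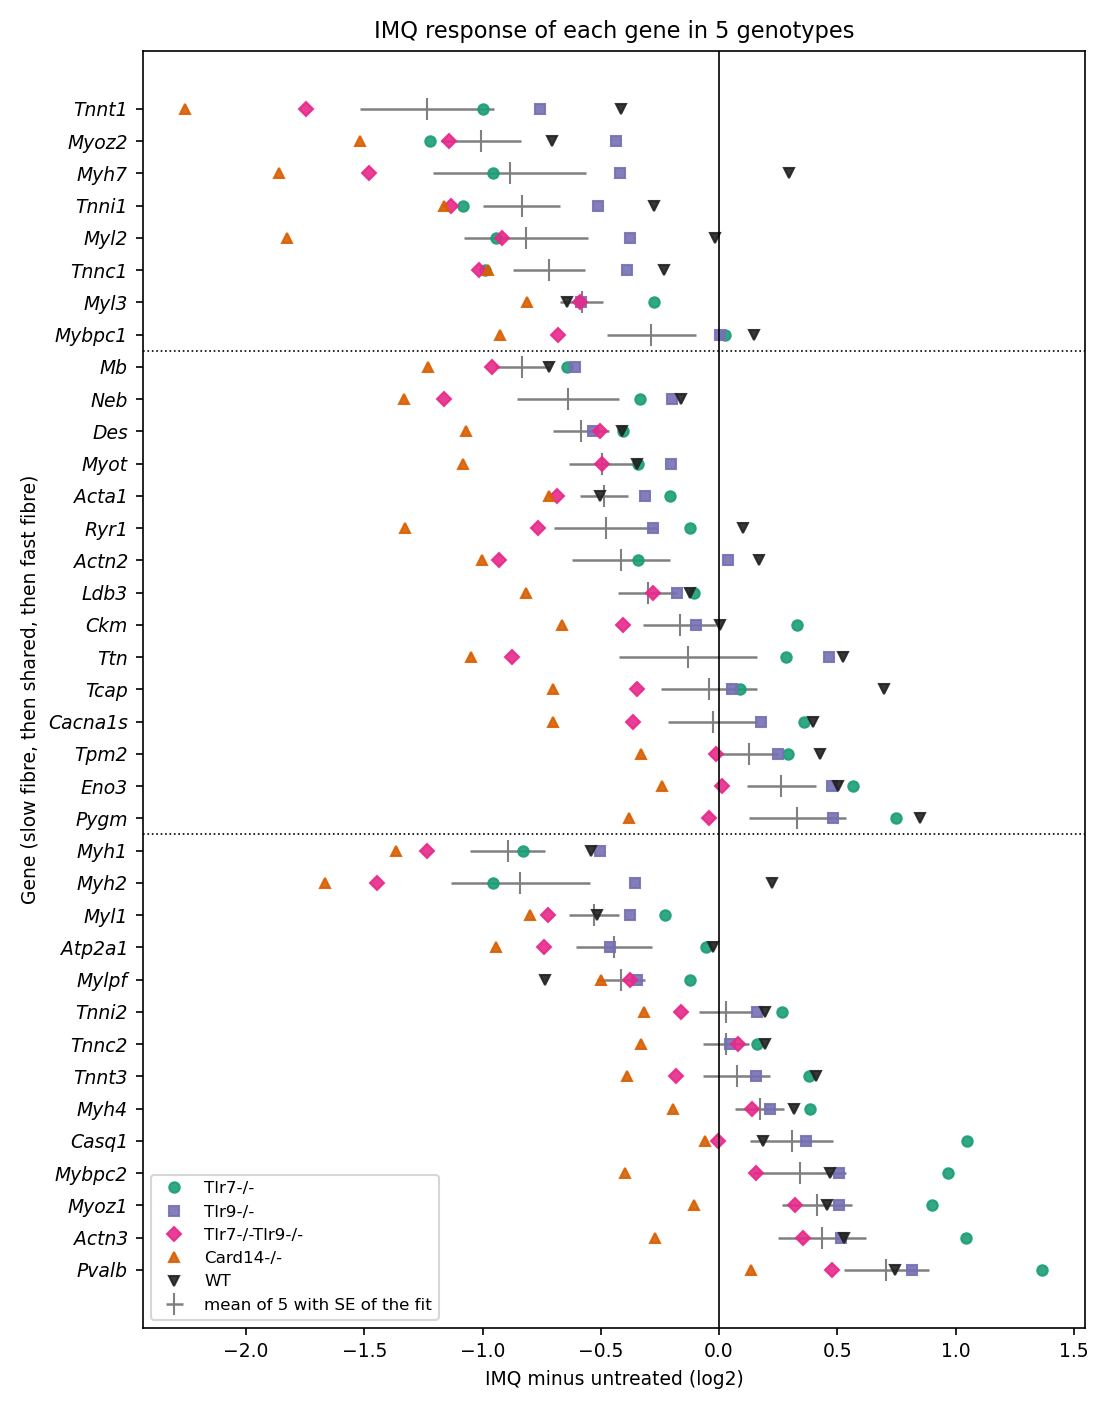
IMQ response (IMQ minus untreated, log2) of each sarcomere gene in each of the 5 genotypes (coloured points), with the mean of the 5 and the SE of the limma fit (grey). Dotted lines separate slow fibre, shared and fast fibre genes. Card14-/- points lie furthest left for most genes, and the spread across genotypes is widest for Myh7, Myh2, Tnnt1 and Myl2.

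The size of the response varied among the pools of the genotypes. The median response of the slow fibre genes was -0.97 in Tlr7-/-, -0.43 in Tlr9-/-, -1.07 in Tlr7-/-Tlr9-/-, -1.34 in Card14-/- and -0.25 in WT. For the fast fibre genes it was 0.32 in Tlr7-/-, 0.16 in Tlr9-/-, -0.08 in Tlr7-/-Tlr9-/-, -0.36 in Card14-/- and 0.21 in WT. For the shared genes it was -0.10 in Tlr7-/-, -0.10 in Tlr9-/-, -0.49 in Tlr7-/-Tlr9-/-, -0.82 in Card14-/- and 0.10 in WT. In each genotype the slow median lay below the fast one. For slow, fast and shared genes alike, the lowest medians were those of Tlr7-/-Tlr9-/- and Card14-/-. Their IMQ arrays lay on a different slide from all other arrays, so slide and genotype cannot be told apart there. Each response also rests on its own pools of mice, so a difference between genotypes cannot be told from a difference between pools.

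**Figure D5:**
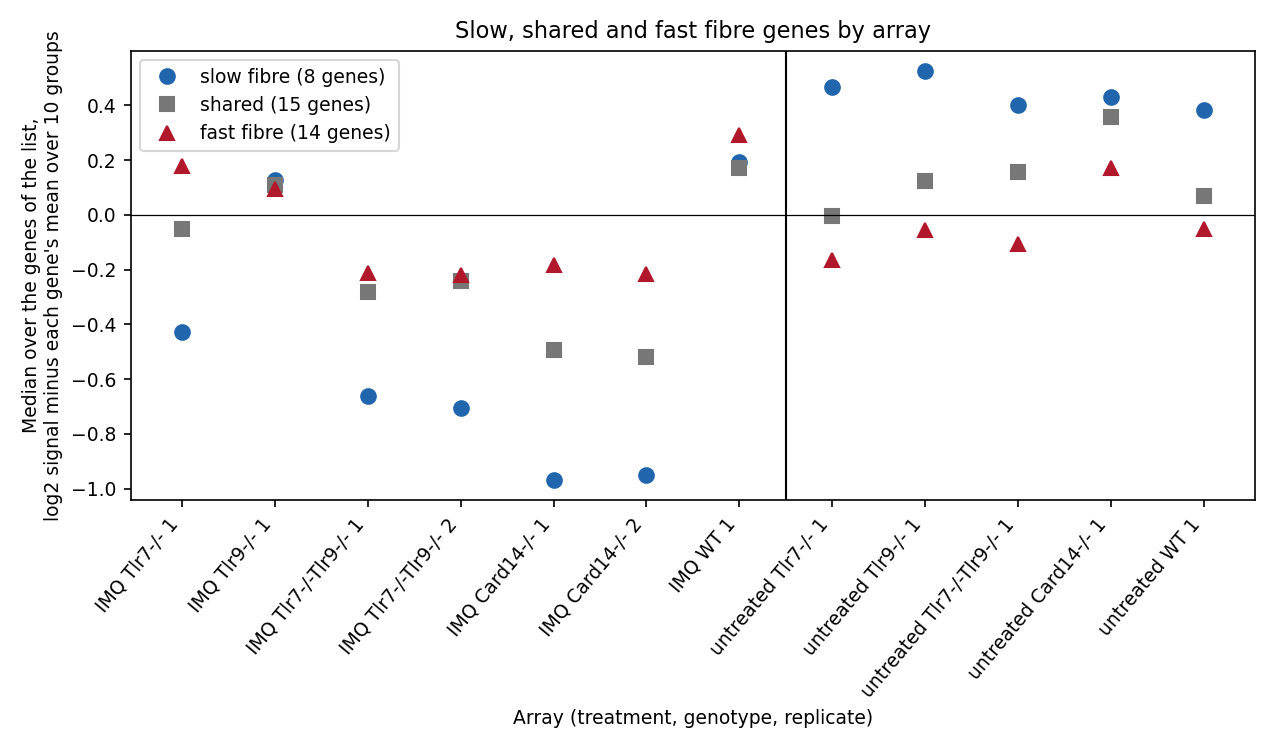
Median over the genes of each list on each of the 12 arrays, as log2 signal minus the gene's mean over the 10 groups, with 7 IMQ arrays on the left and 5 untreated arrays on the right. Slow fibre genes (circles) lie between 0.38 and 0.52 on the untreated arrays and between -0.97 and 0.19 on the IMQ arrays, and fast fibre genes (triangles) lie between -0.22 and 0.29 on all 12 arrays.

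Within single genotypes, members were called at an adjusted p under 0.05 and a response of at least 1 on the log2 scale, with limma and a spread taken from the 2 groups with repeat arrays. In Card14-/- 14 of 37 members fell and 0 rose, against 1.34% of all genes that fell and 3.08% that rose. Tnnt1 was lowest with -2.26, followed by Myh7 with -1.86, Myl2 with -1.83, Myh2 with -1.67 and Myoz2 with -1.52. The other 9 were Myh1, Neb, Ryr1, Mb, Tnni1, Myot, Des, Ttn and Actn2, between -1.37 and -1.003. In Tlr7-/-Tlr9-/- 8 fell and 0 rose, against 2.24% of all genes that fell and 3.92% that rose. These were Tnnt1 with -1.75, Myh7 with -1.48, Myh2 with -1.45, Myh1 with -1.24, Neb with -1.16, Myoz2 with -1.14, Tnni1 with -1.13 and Tnnc1 with -1.01.

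In Tlr7-/- few members were called. Pvalb rose with a response of 1.37, and Casq1 and Actn3 with 1.05 each, while Myoz2 and Tnni1 fell with -1.22 and -1.08. These 3 rises are 8.11% of the members and the 2 falls 5.41%, against 3.90% and 3.67% of all genes, a gap of few genes. The calls numbered 2 with normexp background. In Tlr9-/- and in WT 0 members were called, against 9.07% and 14.4% of all genes, with 27 and 28 members at an unadjusted p under 0.05. These calls rest on a small spread: repeat arrays differed by at most 0.158 for any member, while the SD over the 5 untreated arrays had a median of 0.159 over the members. Leaving out 1 repeat array brought the calls to 0 in Tlr7-/-Tlr9-/- whichever array was left out. In Card14-/- it brought them to 3 without a Tlr7-/-Tlr9-/- array and 0 without a Card14-/- array, and in Tlr7-/- to 0 without a Card14-/- array. With the spread of the additive genotype and treatment fit as the error, 0 members were called in any of the 3 genotypes.

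The response itself differed among genotypes for 17 of 37 members, or 45.9%, against 13.0% of all genes, in a moderated F test of the genotype-by-treatment contrasts with a range of at least 1. The test sets pools of mice against the spread of the repeat arrays, which may be technical, and 0 of the 17 were called with 1 repeat array left out or with the replicate block. They included 4 slow fibre genes beside Myoz2, namely Myh7, Tnnt1, Myl2 and Mybpc1, and 5 fast fibre genes, namely Myh2, Actn3, Mybpc2, Casq1 and Pvalb. Among IMQ groups alone 10 members differed, against 15.5% of all genes, and 0 with 1 repeat array left out or with the replicate block, and among untreated groups 0 differed, against 2.45%, with 25 members at an unadjusted p under 0.05. Directly compared, IMQ Card14-/- and IMQ Tlr7-/-Tlr9-/- ears differed for 0 of 37 members, against 1.45% of all genes, with 20 members at an unadjusted p under 0.05. Between genotypes that lack Tlr7 and the others, the response was called different for 0 of the 24080 genes in the limma fit. Of these, 757 had an unadjusted p under 0.05, 0 of them members. This comparison had 3 residual degrees of freedom and called no gene at all, so it does not show that the responses were alike.

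Slide and genotype were entangled. Slide 1 carried every untreated array together with the single IMQ arrays (Tlr7-/-, Tlr9-/-, WT), while slide 2 carried both IMQ arrays each of Card14-/- and Tlr7-/-Tlr9-/-. For Tlr7-/-Tlr9-/- and Card14-/- the slide and the IMQ response therefore cannot be told apart. Within slide 1 the median response was -0.52 for slow, 0.26 for fast and -0.05 for shared genes, and with slide 2 it was -1.24, -0.18 and -0.70. Of the calls in the 3 genotypes of slide 1 alone, the 4 that fell were Tnnt1 with -0.72, Mb with -0.66, Myh1 with -0.62 and Des with -0.45. The 7 that rose were Pvalb with 0.98, Actn3 with 0.70, Pygm with 0.69, Mybpc2 with 0.65, Myoz1 with 0.62, Eno3 with 0.52 and Ttn with 0.42.

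Before treatment the pools of the 5 genotypes already varied. Among untreated arrays Casq1 ranged over 0.86, Ckm over 0.82, Atp2a1 over 0.73 and Pvalb over 0.70 on the log2 scale. Untreated Card14-/- had the highest fast fibre median, 0.17 above the mean of the 10 groups, and untreated Tlr7-/- the lowest, at -0.17. As each response subtracts 1 untreated array, a high or low untreated pool enters the response of its genotype in full.

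Other genes of striated muscle were read in the same fit, in which 15.9% of all genes fell and 10.4% rose. Of 33 further sarcomere and Z-disc genes 6 fell (18.2%) and 3 rose (9.09%), with a median of -0.14, which is close to those shares. Xirp1, a repair-associated actin-binding protein of muscle, rose with 1.72 ± 0.28, Klhl40, a stabiliser of thin filament proteins, with 0.97 ± 0.20, and Flnc, the muscle filamin, with 0.69 ± 0.17. Myh3 fell with the value above and Myom3, an M-band protein, with -0.90 ± 0.19 (SE, n = 5 genotypes each). Of 18 measured genes of excitation and calcium release 9 fell and 0 rose. The acetylcholine receptor subunits Chrna1 and Chrnd fell with -1.31 ± 0.09 and -1.30 ± 0.07 (SE, n = 5 genotypes each). Chrnb1 was also called lower but was below background on 7 of 7 IMQ arrays, so no size is given.

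Of 11 measured myogenic factors 7 fell (63.6%). Six4, a homeobox factor of muscle, fell with -1.005 ± 0.12 (SE, n = 5 genotypes). Myod1 and Pax7, the factors of myoblasts and satellite cells, were called lower but were below background on 3 of 7 IMQ arrays each. Of 15 muscle metabolism genes 2 fell, the mitochondrial creatine kinase Ckmt2 with -0.77 ± 0.16 and Art1 with -0.52 ± 0.13, and of 9 atrophy genes 1 fell, the ubiquitin ligase Fbxo32 with -0.80 ± 0.08 (SE, n = 5 genotypes each). Of 7 measured cardiac genes 2 rose and 1 fell, among them Mybpc3 with 1.28 ± 0.13 and Tnni3, the neighbour of Tnnt1, with -0.32 ± 0.09 (SE, n = 5 genotypes each). Nppb was called higher but was below background on 1 array, so no size is given.

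Markers of other cell types of the ear were read beside these values, and their part in the responses was not tested. Of 6 Schwann cell markers 4 fell and 0 rose, with a mean level of 11.22 to 11.73 on the IMQ arrays and 11.84 to 12.27 on the untreated arrays. Sox10 fell with -1.24 ± 0.08 and Prx with -0.80 ± 0.08 (SE, n = 5 genotypes each). The 7 smooth muscle markers had mean levels of 8.88 to 9.49 on IMQ arrays and 9.23 to 9.53 on untreated arrays, with Myh11 called lower at -0.74 and Actg2 called higher at 0.32. These means take in Myocd, which was below background on 6 of 7 IMQ arrays and 4 of 5 untreated arrays. The 8 adipocyte markers lay at 12.40 to 13.02 on IMQ and 12.44 to 12.82 on untreated arrays, with Lep called higher at 0.32, and the 7 cartilage markers at 10.18 to 10.88 on IMQ and 10.16 to 11.14 on untreated arrays, with Hapln1 called higher at 0.62, Comp called lower at -0.45 and Matn3 called lower but below background on 2 arrays. The 8 hair shaft markers ran from 7.28 to 11.71 on IMQ arrays and from 8.72 to 11.44 on untreated arrays. In the average response 0 of them were called, but single genotypes moved far in opposite directions. Their median response was -4.17 in Tlr7-/-, -0.33 in Tlr9-/-, -1.24 in Tlr7-/-Tlr9-/-, 2.10 in Card14-/- and 1.21 in WT.

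In the promoters, the E-box was present in 31 of 37 member promoters, or 83.8%, against 66.2% of all 32851 promoters of the same length. It was found in 11 of 11 slow fibre promoters, in 8 of 11 fast ones and in 12 of 15 shared ones. A gene with several starts counts more than once, and its windows can overlap, as those of Myh7 do. The slow fibre promoters belong to 8 genes, the fast ones to 10, the shared ones to 12 and all 32851 promoters to 27025. MEF2 matches were present in 13.5% of member promoters, against 2.92% of all, and CArG matches in 13.5%, against 1.47%. The letters TATAAA, read on both strands, were in 16.2% of member promoters, against 12.4% of all. The first 3 motifs read the same on both strands, and overlapping matches were counted separately. A match describes the letters in the window and shows no binding.

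The targeted genes were read as a check of the labels. Tlr7 lay between 4.02 and 5.85 on the 5 arrays labelled as lacking it and between 7.36 and 8.12 on the 7 others, and Card14 between 9.63 and 9.89 on the 3 Card14-/- arrays and between 10.83 and 11.65 on the 9 others. The Tlr9 probe read 10.95 to 11.33 on arrays labelled as lacking Tlr9 and 11.05 to 11.39 on the others, and the labels do not say whether it lies in the deleted part. Of 59305 spots per array, 60.1% to 65.7% passed the background call and 0 reached saturation. Before normalization the 75th percentile of signal was 527 to 779 on IMQ arrays and 1070 to 1236 on untreated arrays.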

How the data were processed

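Whole ear skin RNA was measured on 12 single-colour arrays in 10 groups, taken from the sample labels. The raw files hold spot intensity values made by Agilent Feature Extraction 10.7.3.1, per the file headers, whereas 10.5.1.1 is the version in the submitters' processing notes. Per the file headers, the processed signal is an intensity from which background was subtracted on each array separately. The authors also deposited a log2 table made with limma, which served only as an alternative.

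The log2 of the processed signal was quantile normalized (limma 3.58.1, R 4.3.3, data.table version 1.17.8), leaving out 235 probes marked as outliers. A filter for signal well above background on 2 or more arrays kept 37125 probes, and the brightest probe by mean stood for each of 24080 genes. Files, sequences and figures were handled with Python 3.11.15, numpy 2.4.6, pandas 2.3.3 and matplotlib 3.10.9. Probe positions are on mm9, from the files, and promoters are RefSeq sequences on GRCm38.p6.

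For the average response, lmFit and eBayes were run on the 10 group values with genotype as a block, which leaves 4 residual degrees of freedom. Group contrasts and F tests used a fit of the 10 groups with 2 residual degrees of freedom, from the repeat arrays of 2 groups. This assumes the same variance for the single arrays. The p-values are two-sided, except those of the F tests, which carry no direction. Calls used p-values adjusted over all genes by Benjamini-Hochberg. Scripts were tested on simulated data. Precision is limited by the number of arrays. The genes described are the 37 members, the 3 largest calls in each direction of each other list, and the 10 genes most alike to the members. Some genes that this rule names are not reported here. Krt14, Krt10 and Lor fall outside that rule and were added after the fits had been run. Members, lists and tests were chosen with earlier results of these data known. Alternatives changed the normalization, background correction, filter, probe choice, source table, slide, genotypes and repeat arrays used, and the closing section gives their effect. The replicate numbers of the 2 groups with repeat arrays were not taken to pair the arrays: over all genes their replicate differences correlated at 0.06 (Pearson), with 2 pairs only.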

Additional observations from a re-analysis of the deposited data

Results flagged for a closer look

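The IMQ response of 17 sarcomere genes differed among the 5 genotypes by an F test of the genotype-by-treatment contrasts with limma. The value given for each is the highest minus the lowest of the 5 responses, in log2 units. Among heavy and light chains it was 2.16 for Myh7, 1.89 for Myh2 and 1.81 for Myl2. For Tnnt1 it was 1.84, for Myoz2 1.08, for Mybpc1 1.08 and for Mybpc2 1.37. Among the giant and Z-disc proteins it was 1.57 for Ttn, 1.17 for Neb, 1.40 for Tcap, 1.17 for Actn2 and 1.32 for Actn3. Among calcium and energy genes it was 1.43 for Ryr1, 1.23 for Pvalb, 1.11 for Casq1, 1.10 for Cacna1s and 1.23 for Pygm. For all 17 the lowest response came from Card14-/-, whose IMQ arrays lay on slide 2. With 1 repeat array left out, or with the replicate block, 0 of these 17 differences were called.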

How the results depend on the processing

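The count of members that fell on average stayed within 1.5 times of 12 except with the genotypes of slide 1 alone, where it was 4, and with 1 genotype left out, where it ran from 3 to 10. The count that rose was 2 with the 75th percentile scaling and 2 with normexp background, 0 without a filter, 13 with slide as a block, 7 with slide 1 alone and 0 to 3 with 1 genotype left out. The fit with slide as a block took repeat arrays singly. The fast fibre median was 0.35 with the 75th percentile scaling. The slow fibre median stayed between -0.99 and -0.52 in 18 alternatives. The fits that leave out a genotype have fewer values, and for the other changes the cause was not tested.

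Signs turned for members with small average responses. With the 75th percentile scaling Tcap was 0.25 and Cacna1s 0.0195, with the deposited table Tcap was 0.0919, and with the mean over probes Ttn was 0.14 and Tpm2 -0.0700. With slide as a block and with slide 1 alone, which give the same estimates, Mybpc1 was 0.0590, Ttn 0.42, Ckm 0.0786, Tcap 0.28 and Cacna1s 0.31. With 1 genotype left out, values ran from -0.00884 to 0.19 for Tnnt3, from -0.0318 to 0.11 for Tnni2, from -0.0112 to 0.12 for Tnnc2, from -0.29 to 0.0991 for Ttn, from -0.23 to 0.12 for Tcap and from -0.13 to 0.14 for Cacna1s.

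Of the group contrasts, Tlr7-/- had 2 members called with normexp and 3 with the deposited table, and WT had 1 with the mean over probes. Without 1 repeat array the calls ran from 0 to 5 in Tlr7-/-, from 0 to 3 in Card14-/- and were 0 in Tlr7-/-Tlr9-/-, 0 for the difference of responses and 0 among IMQ groups. With the replicate block all 5 of these counts were 0 (the block takes 1 of the 2 residual degrees of freedom), and with the additive-fit spread they were 0 as well, except for the difference of responses, where that spread is the tested term itself and could not be applied. The replicate block changed no other call. Signal over background limited no member, since all 37 were measured on all 12 arrays.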

Other observations

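Outside the muscle and cell type lists, the 10 genes whose log2 signal was most alike to the mean of the 37 members over the 10 groups were Pde4dip, Ndrg2, Iqsec1, Mr1, Bptf, Pcp4l1, Fhl1, Inf2, Tnrc6c and Nexn. Their Pearson correlations lay between 0.95 for Nexn and 0.97 for Pde4dip, as a description over 10 group values that share arrays and normalization. Their average responses ran from -0.60 for Pcp4l1 to -0.12 for Inf2, and none passed the test, with adjusted p from 0.0634 to 0.327 in the limma fit.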
